A study of Mus musculus with 6 samples.

Results

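Genes that break down purines inside the cell, or nucleotides at its surface, were examined by symbol in read counts of 6 mouse RNA sequencing libraries. They were 9 of the 56884 genes counted: *Ada*, *Gda*, *Xdh*, *Pnp*, *Nt5e*, *Enpp3*, *Entpd5*, *Entpd8* and *Slc28a2*. The libraries came from organoids of the small intestine, epithelial cultures that grow in a gel, from mice with Villin-CreERT2, Lgr5-EGFP-IRES-CreERT2 and Ythdf2fl/fl. CreERT2 is a Cre recombinase that acts once 4-hydroxytamoxifen (4-OHT) binds it, and a floxed gene is one whose flanked part Cre can remove. Every library therefore shared the floxed *Ythdf2* gene and both CreERT2 alleles. Within a day the labels of the groups differed in the agent alone, 4-OHT at 0.5 µM or ethanol (EtOH), the vehicle. The villin promoter acts throughout the intestinal epithelium, so the design does not restrict Cre to the stem cells. Cells positive for Lgr5-GFP, a reporter of intestinal stem cells, were sorted at day 4 or day 6 of treatment. There were 2 libraries per agent at day 6 and 1 per agent at day 4. The ages of the mice, and whether replicates came from separate cultures or animals, are not stated, so p-values measure only the spread between these libraries, which may be technical.

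Purine nucleotides are taken apart in steps. At the cell surface, ectoenzymes of the ENPP, ENTPD, alkaline phosphatase and 5'-nucleotidase families strip phosphates from nucleotides until a nucleoside such as adenosine is left, and concentrative transporters such as the product of *Slc28a2* carry nucleosides into the cell. Inside, adenosine deaminase (*Ada*) turns adenosine into inosine, purine nucleoside phosphorylase (*Pnp*) splits inosine and guanosine into sugar phosphate and base, guanine deaminase (*Gda*) turns guanine into xanthine, and xanthine dehydrogenase (*Xdh*) oxidises hypoxanthine and xanthine to urate. In the small intestine, *Ada*, *Nt5e* and *Slc28a2* are known as genes of enterocytes near the villus tip.

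Libraries held 14345379 to 21461835 gene counts, and those of day 6 at least 17197322. Replicates of day 6 differed by more than sampling noise (chi-square per degree of freedom 35.9 with EtOH and 25 with 4-OHT), so each was kept as a replicate. *Ythdf2* itself was higher in the libraries labelled 4-OHT, at 79.4 ± 4.74 counts scaled by library size (CPM) with EtOH and 206 ± 2.33 CPM with 4-OHT at day 6 (SD, n = 2 each). That is opposite to a loss of transcript, and counts per gene cannot show whether the floxed part was present, so directions below describe what the libraries were labelled, relative to EtOH. *Lgr5*, the gene of the sorted reporter, was present in every library, at 297 ± 66.8 and 218 ± 12.9 CPM at day 6 (SD, n = 2 each). The 2 days carry library names of different number series, so day and library preparation cannot be told apart.

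All 9 genes passed the filter on low counts. At day 6, *Ada*, *Gda*, *Xdh* and *Enpp3* rose in the libraries labelled 4-OHT, by 3.04-fold (*Xdh*) to 18.6-fold (*Enpp3*), and none of the 9 fell. These 4 of 9 passed the threshold of 0.05 (edgeR quasi-likelihood, p adjusted by Benjamini-Hochberg over 14066 genes). Of all genes tested, 2.27% were called higher and 0.235% lower (2.51% in all). The median log2 fold change was 1.60 over the 9 genes and −0.01 over all genes tested. The 9 genes were chosen with earlier results of these data known. These shares and medians therefore describe the chosen genes and do not test them as a set. *Pnp*, *Nt5e*, *Entpd5*, *Entpd8* and *Slc28a2* did not pass, although both libraries labelled 4-OHT lay above both EtOH libraries for *Nt5e* and below them for *Entpd8*. In all, 5 of the 9 genes lay wholly above and 1 wholly below, against 20.5% and 18.4% of all genes tested. Since RNA came from pooled sorted cells, a change in the share of cells of a type and a change in RNA per cell cannot be told apart.

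**Figure D1:**
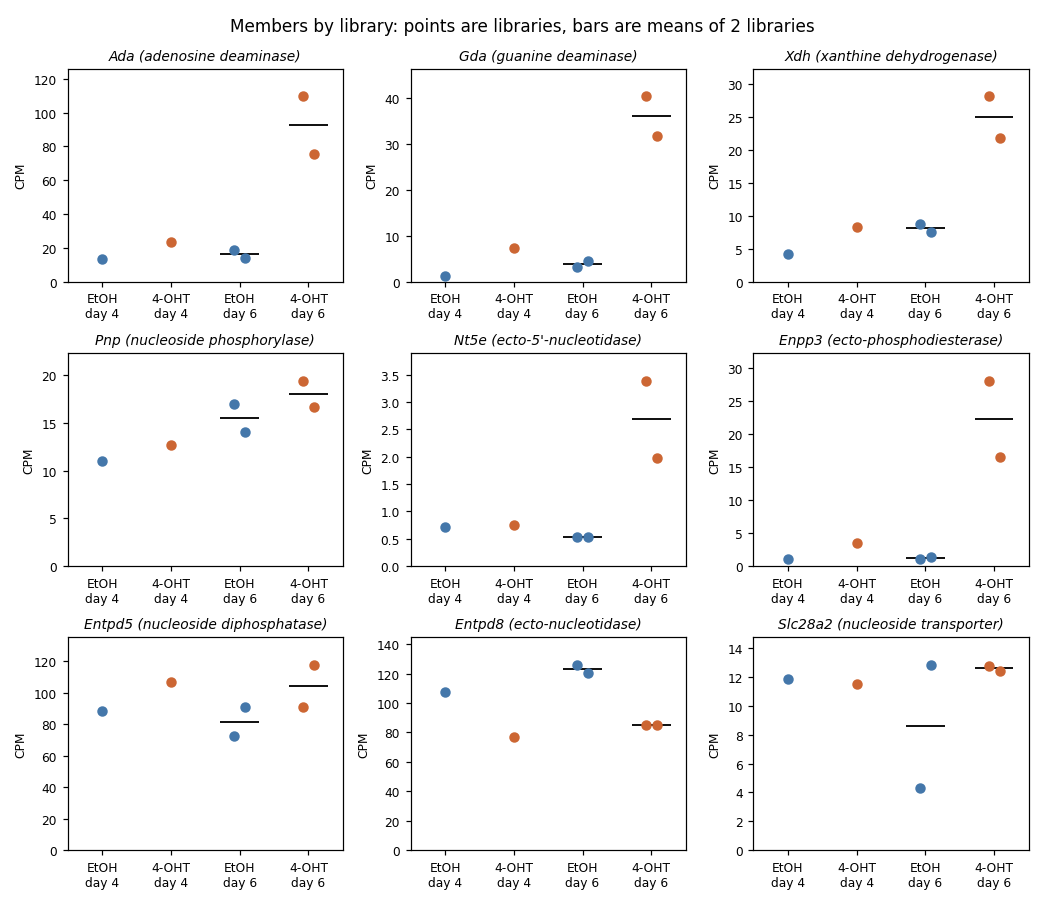
CPM (vertical axes, from 0) of the 9 genes in each of the 6 libraries, EtOH in blue and labelled 4-OHT in orange, at day 4 (1 library each) and day 6 (2 libraries each, with their mean as a bar). *Ada*, *Gda*, *Xdh* and *Enpp3* stand well above EtOH at day 6 and above it by less at day 4, *Entpd8* lies below EtOH on both days, and *Slc28a2* is low in 1 EtOH library only.

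*Ada*, which deaminates adenosine, spans chr2:163565705-163592159 on the minus strand (ENSMUSG00000017697, GRCm39). Day 6 levels were 18.6 and 14.2 CPM with EtOH but 109.6 and 75.5 CPM with 4-OHT, and day 4 levels 13.4 (EtOH) and 23.3 CPM (4-OHT). All 3 libraries labelled 4-OHT were thus above all 3 with EtOH, which held for 11.1% of the 14060 genes tested over both days. At day 6 this was a log2 fold change of 2.49 (standard error, SE, 0.24), with an adjusted p of 0.000567 by edgeR quasi-likelihood. Of the exon bases of *Ada*, 20.2% overlap *Pkig* on the opposite strand, and the strand setting of the counting is not stated.

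*Pnp*, the next step for inosine, showed no such rise. It spans chr14:51168473-51190869 on the plus strand (ENSMUSG00000115338). Levels were 17.0 and 14.1 CPM with EtOH and 19.4 and 16.7 CPM with 4-OHT at day 6, and the groups overlapped. The log2 fold change was 0.21 (SE 0.23, adjusted p 0.864 by edgeR quasi-likelihood). Its counts are uncertain, since 24.1% of the 100-base windows of its canonical transcript also occur in transcripts of *Pnp2*, *Gm38316* or *Gm49342*, and reads that map to several places are in no gene. *Pnp2*, a neighbouring gene of the same enzyme family, had 237 and 117 counts with EtOH and 381 and 251 with 4-OHT at day 6, and its difference of 0.68 on the log2 scale had an adjusted p of 0.513 by edgeR quasi-likelihood.

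*Gda*, which deaminates guanine, rose by 9.36-fold at day 6. It spans chr19:21368671-21450809 on the minus strand (ENSMUSG00000058624). Levels were 3.18 and 4.52 CPM with EtOH against 40.3 and 31.7 CPM with 4-OHT at day 6, and 1.23 against 7.40 CPM at day 4. The highest EtOH library was below the lowest library labelled 4-OHT over both days together. The day 6 log2 fold change was 3.23 (SE 0.27, adjusted p 0.000342 by edgeR quasi-likelihood), and no exon base of *Gda* overlaps another gene.

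*Xdh*, whose enzyme makes urate, spans chr17:74190203-74257399 on the minus strand (ENSMUSG00000024066). At day 6 it had 8.73 and 7.59 CPM with EtOH but 28.1 and 21.7 CPM with 4-OHT, while day 4 gave 4.21 (EtOH) and 8.35 CPM (4-OHT). Within each day the libraries labelled 4-OHT were higher, while the day 4 library labelled 4-OHT lay between the day 6 EtOH libraries. The day 6 log2 fold change was 1.60 (SE 0.25, adjusted p 0.00745 by edgeR quasi-likelihood). It did not pass when EtOH replicate 1 (1.71, adjusted p 0.0653) or EtOH replicate 2 (1.51, adjusted p 0.0505) was left out, and in those fits the lone EtOH library is assumed to vary like the other group. The call for *Xdh* at day 6 therefore needs both EtOH libraries, though the value moved little. Calls over all genes also became fewer without EtOH replicate 1, which bears on the same loss for genes below.

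Among the surface enzymes, *Enpp3* changed most of the 9 genes. It encodes an ectonucleotide pyrophosphatase and phosphodiesterase and spans chr10:24648304-24718721 on the minus strand (ENSMUSG00000019989). At day 6 it had 21 and 22 counts with EtOH but 603 and 307 with 4-OHT, and day 4 gave 21 (EtOH) and 50 (4-OHT). In CPM, the level rose from 1.19 ± 0.115 to 22.2 ± 8.21 (SD, n = 2 each), and the 2 libraries labelled 4-OHT, at 28.1 and 16.4 CPM, differed from each other more than the EtOH libraries did. The log2 fold change was 4.21 (SE 0.38, adjusted p 0.000512 by edgeR quasi-likelihood).

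*Nt5e* encodes CD73, the 5'-nucleotidase that releases adenosine from AMP, and spans chr9:88209089-88254146 on the plus strand (ENSMUSG00000032420). Few reads fell on it. At day 6 the EtOH libraries had 10 and 9 counts and the libraries labelled 4-OHT 73 and 37, while day 4 gave 14 (EtOH) and 11 (4-OHT). The day 6 groups did not overlap, whereas at day 4 the levels were 0.718 and 0.747 CPM. The day 6 log2 fold change of 2.35 (SE 0.54) missed the threshold by edgeR quasi-likelihood (adjusted p 0.0565). It passed by DESeq2 (adjusted p 0.0367). The value ran from 1.90 to 2.67 when 1 library was left out, and whether *Nt5e* passed depended on the library. Over both days *Nt5e* did not pass (1.76, SE 0.51, adjusted p 0.1015 by edgeR quasi-likelihood).

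*Entpd8* and *Entpd5* belong to the ENTPD family, which removes phosphates from nucleoside tri- and diphosphates. *Entpd8*, a surface enzyme of the family, was the one gene of the 9 with lower values in the libraries labelled 4-OHT on both days. Its level was 126 and 120 CPM with EtOH and 84.8 and 85.0 CPM with 4-OHT at day 6, and 107 (EtOH) and 76.8 CPM (4-OHT) at day 4. The 3 libraries labelled 4-OHT lay below all 3 with EtOH, which held for 9.02% of genes. The day 6 log2 fold change was −0.54 (SE 0.16, adjusted p 0.142 by edgeR quasi-likelihood). *Entpd8* (ENSMUSG00000036813) spans chr2:24969205-24975728 on the plus strand, and 10.4% of its exon bases overlap *Gm39770* or *Noxa1*.

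*Entpd5*, whose enzyme hydrolyses nucleoside diphosphates in the endoplasmic reticulum, spans chr12:84420631-84455812 on the minus strand (ENSMUSG00000021236). Its levels of 72.3 and 91.0 CPM with EtOH overlapped those of 90.7 and 118 CPM with 4-OHT at day 6. The difference, 0.35 on the log2 scale (SE 0.19), had an adjusted p of 0.619 by edgeR quasi-likelihood, and 10.3% of its exon bases overlap *Bbof1* or *Coq6*.

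*Slc28a2*, the purine nucleoside transporter, turned on 1 library. The gene (ENSMUSG00000027219) spans chr2:122256870-122291632 on the plus strand. It had 82 counts in EtOH replicate 1 of day 6 and 222 in EtOH replicate 2, against 275 and 232 in the libraries labelled 4-OHT. In CPM, EtOH replicate 1 stood at 4.34 and the other 5 libraries between 11.6 and 12.9. The day 6 log2 fold change of 0.56 (SE 0.41, adjusted p 0.761 by edgeR quasi-likelihood) became −0.03 without EtOH replicate 1 and 1.53 without EtOH replicate 2. *Slc28a2b*, its neighbouring copy, had 9 to 17 counts at day 6 and 0 to 1 at day 4, and 20.1% of the 100-base windows of *Slc28a2* also occur in it.

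**Figure D2:**
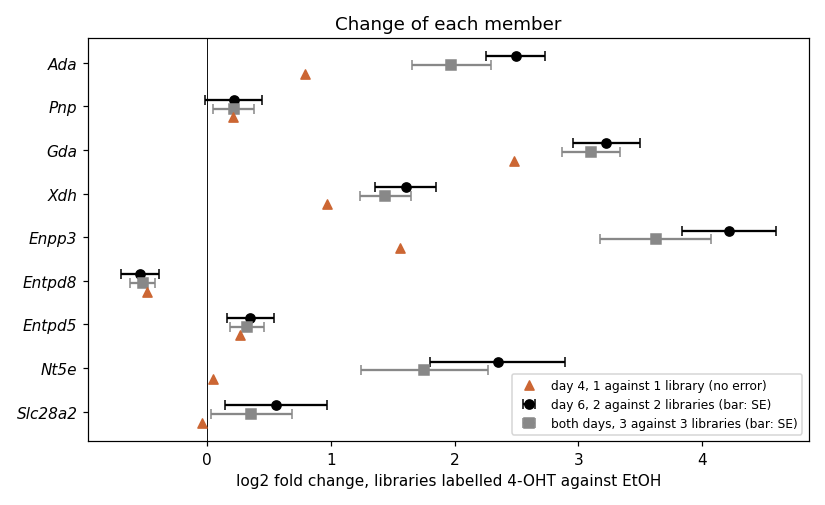
Log2 fold change (horizontal axis) of each gene in libraries labelled 4-OHT against EtOH, at day 6 (black, with SE), over both days (grey, with SE) and at day 4 (orange triangles, 1 library per agent and so no error). *Enpp3*, *Ada* and *Nt5e* have day 6 values well to the right of their day 4 values, while the symbols of *Pnp*, *Entpd5* and *Entpd8* nearly coincide.

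Over both days, 3 libraries labelled 4-OHT were compared with 3 with EtOH, with day as a term. The same 4 genes rose and *Entpd8* fell, so that 4 of 9 were called higher and 1 lower, against 3.67% and 0.718% of the 14060 genes tested (4.39% in all). The fit contains the 4 day 6 libraries, so it is no independent check. Log2 fold changes were 1.97 (SE 0.32, adjusted p 0.00653) for *Ada*, 3.10 (SE 0.23, 0.00014) for *Gda*, 1.44 (SE 0.21, 0.00361) for *Xdh* and 3.62 (SE 0.45, 0.00162) for *Enpp3* by edgeR quasi-likelihood. *Entpd8* had −0.52 (SE 0.10) with an adjusted p of 0.0175. This fall did not pass once either library labelled 4-OHT of day 6 was left out (adjusted p 0.104 and 0.0925 by edgeR quasi-likelihood). Nor did it without the day 4 library labelled 4-OHT (0.141) or the day 4 EtOH library (0.147), with values of −0.54 to −0.51 over these fits. Without either day 4 library, the day term takes up the other one. Such a fit only restates the day 6 comparison and is no separate failure. *Ada* did not pass without EtOH replicate 1 of day 6 (1.88, adjusted p 0.0508).

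At day 4, with 1 library per agent, values compare these libraries and were not tested. Of the 9 genes, 8 had a mean of at least 1 CPM at day 4, and 2 of these, *Gda* and *Enpp3*, were at least 2-fold higher in the library labelled 4-OHT and 0 lower, against 4.62% higher and 1.39% lower of 12836 genes. The ratio of the library labelled 4-OHT to the EtOH library was 6.01 for *Gda* (95% interval 3.84 to 9.78) and 3.15 for *Enpp3* (1.86 to 5.52). It was 1.99 for *Xdh* (1.49 to 2.66), 1.74 for *Ada* (1.48 to 2.05), 1.21 for *Entpd5* (1.13 to 1.29) and 0.716 for *Entpd8* (0.665 to 0.77). For *Nt5e* (1.04, 0.427 to 2.47), *Slc28a2* (0.97, 0.791 to 1.19) and *Pnp* (1.16, 0.946 to 1.41) the interval held 1. The exact binomial intervals cover counting error only.

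Whether the effect differed between the days was tested as an interaction over all 6 libraries, in which the spread comes from day 6 alone. By edgeR quasi-likelihood 0 of the 9 genes and 0 of 14060 genes passed (0% in all), while 228 genes had an unadjusted p under 0.05 and DESeq2 called 6 genes, none of the 9. The day 6 effect exceeded that of day 4 by 1.70 on the log2 scale (SE 0.41) for *Ada*, with an unadjusted p of 0.00167, and by 2.57 (SE 0.80) for *Enpp3*, with an unadjusted p of 0.0084, both with an adjusted p of 1. The difference was 2.30 (SE 1.12, adjusted p 1) for *Nt5e* and 0.65 (SE 0.59, adjusted p 1) for *Gda*. Larger day 6 values of *Ada* and *Enpp3* are therefore a description of these libraries.

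**Figure D3:**
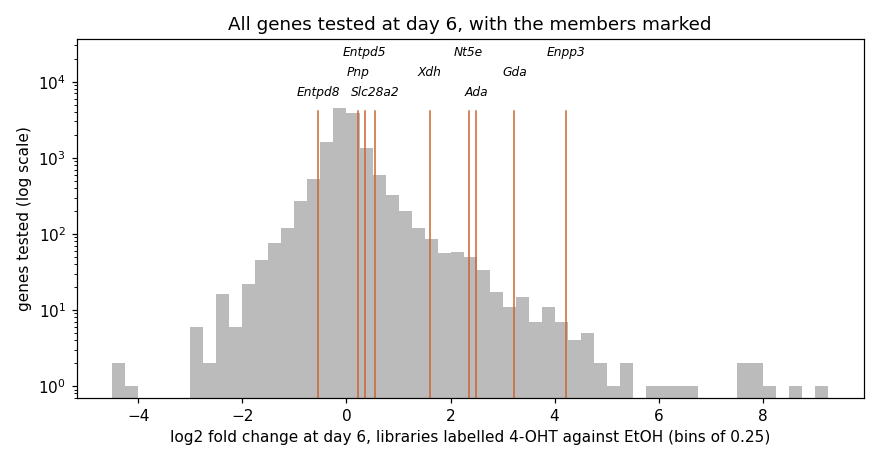
Number of genes (vertical log axis) by log2 fold change at day 6 in bins of 0.25, over the 14066 genes tested, with the 9 genes marked by orange lines. *Enpp3* (4.21) and *Gda* (3.23) lie far out in the upper tail, while *Pnp*, *Entpd5*, *Slc28a2* and *Entpd8* lie within the central mass.

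Levels between genes were compared as CPM per kb of exon at day 6. With EtOH, *Entpd8* was highest (33.8 ± 1.14 CPM per kb) and *Entpd5* next (8.36 ± 1.36), followed by *Pnp* (3.98 ± 0.527), *Ada* (3.09 ± 0.585), *Slc28a2* (1.77 ± 1.24), *Xdh* (0.634 ± 0.0628), *Gda* (0.49 ± 0.121), *Enpp3* (0.118 ± 0.0114) and *Nt5e* (0.06 ± 0.00063) (SD, n = 2 each). Neighbours from *Pnp* to *Gda* differed by less than their summed SDs. In the libraries labelled 4-OHT, *Entpd8* (23.3 ± 0.0233 CPM per kb) still came first, but *Ada* (17.5 ± 4.55) had passed *Entpd5* (10.7 ± 1.97), and *Gda* (4.59 ± 0.773) stood beside *Pnp* (4.63 ± 0.496) (SD, n = 2 each). Neither *Slc28a2* (2.59) and *Enpp3* (2.19) nor *Enpp3* and *Xdh* (1.93) differed beyond their summed SDs, and *Nt5e* (0.307) remained last. Taking the longest transcript as the length left the EtOH order as it was, and with 4-OHT placed *Gda* above *Pnp* and *Slc28a2* below *Enpp3* and *Xdh*.

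**Figure D4:**
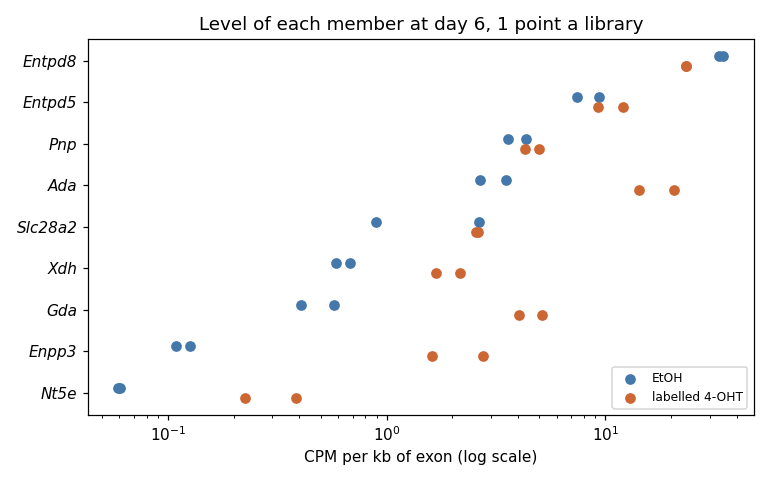
Level of each gene at day 6 in CPM per kb of exon (horizontal log axis), 1 point per library, EtOH in blue and labelled 4-OHT in orange. *Entpd8* is highest and *Nt5e* lowest in both groups, and the gap between the colours is widest for *Enpp3* and *Gda*.

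The promoters of the 4 genes that rose at day 6 and of *Entpd8*, called lower over both days only, are shown as a description. Whether these promoters have a part in the changes was not tested. Each runs 5′ to 3′ on the gene's strand from 250 bases before to 50 bases after the start of the Ensembl canonical transcript (GENCODE M39, GRCm39). Capitals mark matches, on either strand, to 6 short motifs of transcription factors of the intestinal epithelium. AP-1 was searched as TGANTCA and GATA as AGATAA. CDX was searched as TTTATNG and HNF4 as AAAGTCC. KLF was searched as CCACCC and HNF1 as GTTAAT, a part of its site. No motif contains another.
The windows are chr2:163592110-163592409 (Ada, minus strand), chr19:21449987-21450286 (Gda, minus strand), chr17:74257158-74257457 (Xdh, minus strand), chr10:24712074-24712373 (Enpp3, minus strand) and chr2:24970066-24970365 (Entpd8, plus strand).
Ada: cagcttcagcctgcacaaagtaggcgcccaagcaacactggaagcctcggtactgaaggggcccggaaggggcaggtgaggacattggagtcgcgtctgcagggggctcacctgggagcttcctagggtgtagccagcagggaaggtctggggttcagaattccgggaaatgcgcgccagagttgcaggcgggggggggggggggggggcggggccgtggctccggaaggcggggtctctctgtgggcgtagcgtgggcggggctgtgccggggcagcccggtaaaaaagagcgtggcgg
Gda: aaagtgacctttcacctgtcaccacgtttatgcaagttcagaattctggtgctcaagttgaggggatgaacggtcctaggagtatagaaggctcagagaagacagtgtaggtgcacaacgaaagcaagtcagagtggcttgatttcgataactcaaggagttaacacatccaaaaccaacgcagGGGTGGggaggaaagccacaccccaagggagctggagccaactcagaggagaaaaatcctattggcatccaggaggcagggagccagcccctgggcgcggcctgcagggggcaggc
Xdh: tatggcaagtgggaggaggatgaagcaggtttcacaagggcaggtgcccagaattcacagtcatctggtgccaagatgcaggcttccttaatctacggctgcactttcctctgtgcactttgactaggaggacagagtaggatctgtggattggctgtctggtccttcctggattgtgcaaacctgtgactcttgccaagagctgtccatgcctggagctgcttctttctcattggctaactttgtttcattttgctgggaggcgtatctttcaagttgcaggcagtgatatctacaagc
Enpp3: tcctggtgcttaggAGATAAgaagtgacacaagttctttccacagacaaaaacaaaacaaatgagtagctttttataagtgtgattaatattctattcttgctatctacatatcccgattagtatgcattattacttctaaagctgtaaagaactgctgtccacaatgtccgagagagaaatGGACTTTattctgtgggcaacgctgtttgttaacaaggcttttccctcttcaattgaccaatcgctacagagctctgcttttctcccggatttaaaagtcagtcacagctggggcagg
Entpd8: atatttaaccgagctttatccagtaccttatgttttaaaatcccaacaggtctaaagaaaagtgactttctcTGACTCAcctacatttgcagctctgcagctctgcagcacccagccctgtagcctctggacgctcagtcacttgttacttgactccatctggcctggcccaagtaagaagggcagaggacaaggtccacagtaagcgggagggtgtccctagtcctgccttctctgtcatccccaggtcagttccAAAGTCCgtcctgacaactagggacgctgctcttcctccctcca

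No single motif was common to the genes that rose. *Gda* held 1 KLF match at position −66, *Enpp3* a GATA match at −236 and an HNF4 match at −68, and *Ada* and *Xdh* none of the 6 motifs in this window. *Entpd8* held an AP-1 match at −178 and an HNF4 match at 7. Of the 9 promoters, 2 held the HNF4 and 2 the GATA motif, which occur in 4.52% and 10.6% of 21667 promoters of protein-coding genes, and 2 held the HNF1 motif (6.91%). The AP-1 (7.15%), CDX (10.6%) and KLF (32.5%) motifs each occurred in 1. A match describes letters in the window and is not a binding site.

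The wider pathway was read from lists of genes chosen by role, with earlier results of these data known. Of 17 intracellular purine breakdown genes tested (21 listed), 3 rose at day 6, which were *Ada*, *Gda* and *Xdh*, and 0 fell, with a median log2 fold change of 0.21. The AMP deaminases *Ampd2* (−0.32) and *Ampd3* (0.33) and the cytosolic nucleotidases *Nt5c2* (0.01) and *Nt5c3* (0.23) did not pass. Nor did *Urad* (−0.90), *Urah* (0.60) and *Lacc1* (−0.56), with larger values. Of the 17 genes, 4 had an unadjusted p under 0.05 at day 6 and 11 over both days, by edgeR quasi-likelihood. *Uox*, which oxidises urate further, was at 0 to 0.12 CPM on average in each group and was not tested.

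Of 18 surface and related nucleotide enzymes tested (20 listed), 4 rose and 0 fell at day 6, with a median of 0.25. Besides *Enpp3*, these were *Alpi*, *Akp3* and *Bst1*. *Alpi*, the intestinal alkaline phosphatase of the brush border, stood at 95.4 and 107 CPM with EtOH and 476 and 505 CPM with 4-OHT (log2 fold change 2.27, SE 0.17, adjusted p 0.000139 by edgeR quasi-likelihood). The groups were far apart, and day 4 showed 77.3 (EtOH) and 188 CPM (4-OHT). *Akp3*, a second intestinal alkaline phosphatase gene, rose from 29.0 ± 2.37 to 71.0 ± 0.501 CPM (SD, n = 2 each; 1.29, SE 0.18, adjusted p 0.00445 by edgeR quasi-likelihood), but at day 4 the ratio was 0.704 (95% interval 0.6 to 0.825, counting error only). Its difference between the days had an unadjusted p of 0.000188 but did not pass (adjusted p 0.823, both by edgeR quasi-likelihood). Over both days *Akp3* did not pass either (0.75, SE 0.30, adjusted p 0.248 by edgeR quasi-likelihood). *Bst1*, an ectoenzyme of NAD breakdown, had a log2 fold change of 1.88 (SE 0.34, adjusted p 0.0181), which did not pass without EtOH replicate 1 (1.55, adjusted p 0.146). *Entpd4* was listed at 0 in all 6 libraries, and 100% of its 100-base windows also occur in other genes, *Entpd4b* among them.

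**Figure D5:**
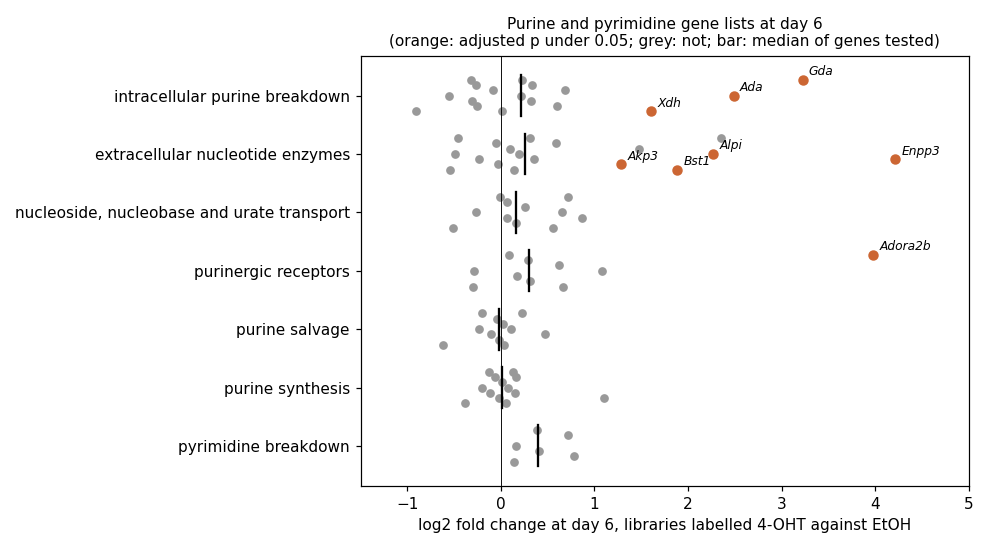
Log2 fold change at day 6 (horizontal axis) of each gene tested in 7 lists (rows), orange where the adjusted p is under 0.05 and grey elsewhere, with the list's median as a bar; height within a row carries no meaning. Genes that passed lie in the breakdown, surface enzyme and receptor lists, and 0 of the genes of salvage, synthesis, transport and pyrimidine breakdown passed.

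Of 10 purinergic receptor and channel genes tested (19 listed), 1 rose and 0 fell, with a median of 0.30. It was *Adora2b*, a receptor for adenosine, with 6 and 20 counts (EtOH) against 171 and 284 (4-OHT) at day 6. Day 4 gave 23 (EtOH) and 127 (4-OHT). All 3 libraries labelled 4-OHT were above all 3 with EtOH. Its log2 fold change was 3.98 (SE 0.54, adjusted p 0.0042 by edgeR quasi-likelihood), and did not pass without EtOH replicate 1 (3.31, adjusted p 0.0946). The other adenosine receptors tested, *Adora1* (0.17) and *Adora2a* (1.08), did not pass.

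Purine salvage and synthesis genes, which rebuild nucleotides, gave no call at day 6. Of 11 salvage genes, 0 passed by edgeR and 1 had an unadjusted p under 0.05, with a median log2 fold change of −0.02. Of 13 synthesis genes 0 passed, 1 had an unadjusted p under 0.05 and the median was 0.01. *Hprt1* (0.03), *Aprt* (0.11) and *Adk* (−0.04), the main salvage enzymes, and *Ppat* (0.07), the entry to purine synthesis, were near 0. Over both days 1 synthesis gene rose, *Adss1* (1.05, adjusted p 0.0356 by edgeR quasi-likelihood), which did not pass when any 1 of the 6 libraries was left out (adjusted p 0.0681 to 0.167). Of these fits, those without a day 4 library only restate the day 6 comparison. Of 11 nucleoside, nucleobase and urate transport genes tested (14 listed) 0 passed at day 6 and 3 had an unadjusted p under 0.05, with a median of 0.16. Among them the equilibrative transporter *Slc29a1* had 0.16 and the urate exporter *Abcg2* 0.26. Over both days the urate transporter *Slc2a9* rose (0.96, adjusted p 0.034 by edgeR quasi-likelihood) and *Slc23a4* fell (−0.64, adjusted p 0.0333). Neither passed when any library other than EtOH replicate 2 of day 6 was left out. The highest adjusted p by edgeR quasi-likelihood, 0.302 and 0.324, came from leaving out a day 4 library, which only restates the day 6 comparison.

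Markers of differentiated enterocytes, in lists chosen with earlier results of these data known, rose as well at day 6. Of 7 villus tip markers tested (8 listed) 4 rose at day 6 and 0 fell, namely *Krt20* (log2 fold change 2.65), *Creb3l3* (2.29), *Apoa4* (2.15) and *Klf4* (1.09), and their list summed to 622 to 644 CPM with EtOH and 928 to 935 CPM with 4-OHT. *Klf4* did not pass without EtOH replicate 1 (adjusted p 0.146) or 4-OHT replicate 2 (0.0888). *Junb* (0.36), *Egfr* (0.19) and *Fos* (0.10) did not pass at day 6. Of the day 6 sum with EtOH, *Fos* made up 356 and *Junb* 139 CPM on average. At day 4 the sum was 1104 (EtOH) and 811 CPM (4-OHT), of which *Fos* made up 770 and 428 CPM. *Junb* was also lower with 4-OHT at day 4 (ratio 0.823) and *Egfr* higher (1.32). The 4 markers that rose at day 6 were each higher with 4-OHT at day 4, *Krt20* at 3.44 and 26.6 CPM for example. The mid villus list rose in 6 of 8 genes. Of these, *Apob* (1.22) was only just under the threshold (adjusted p 0.0493 by edgeR quasi-likelihood) and was not refitted with a library left out. *Slc5a1* (0.40), at 312 CPM with EtOH and 414 CPM with 4-OHT at day 6, and *Slc7a7* (0.32) did not pass. Their day 4 ratios were 0.883 and 1. The list summed to 587 to 730 CPM with EtOH and 1357 to 1560 CPM with 4-OHT at day 6. Of its 5 genes with the largest change, the sugar and peptide transporters *Slc15a1* (adjusted p 0.135), *Slc2a2* (0.101) and *Slc2a5* (0.142) did not pass without EtOH replicate 1, and *Slc15a1* (0.0556) and *Slc2a5* (0.063) not without EtOH replicate 2. *Slc2a5* also did not pass without 4-OHT replicate 1 (0.114). Of 6 stem cell markers 1 fell, *Olfm4* (−1.27, adjusted p 0.0312 by edgeR quasi-likelihood), which did not pass without EtOH replicate 1 (0.264), EtOH replicate 2 (0.0616) or 4-OHT replicate 2 (0.0604). The stem cell list summed to 5281 to 5603 CPM with EtOH and 3366 to 3549 CPM with 4-OHT at day 6, and to 4659 (EtOH) and 3920 CPM (4-OHT) at day 4. *Olfm4* alone had 2773 CPM (EtOH) and 1152 CPM (4-OHT) at day 6. *Axin2* (−0.47), *Lgr5* (−0.45), *Smoc2* (−0.39), *Slc12a2* (−0.10) and *Ascl2* (0.14) did not pass. In all, 4 of the 6 stem cell markers had an unadjusted p under 0.05 by edgeR quasi-likelihood. Over both days *Lgr5* (−0.44) did not pass by edgeR quasi-likelihood (adjusted p 0.110) but passed by DESeq2 (adjusted p 0.0469). Markers of immune cells summed to 0.0529 to 0.41 CPM, with *Itgax* at 0 in all 6 libraries, endothelial markers to 0.232 to 0.975 CPM, and mesenchymal markers to 4.31 to 13 CPM, of which *Vim* made up 3.34 to 12.3 CPM.

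Among markers of other epithelial cells, 1 tuft cell gene was called at day 6. Tuft cell markers summed to 14.8 to 25.9 CPM with EtOH and 5.62 to 7.72 CPM with 4-OHT at day 6. Of 3 tested (4 listed, *Gnat3* at 0 in all 6 libraries) 1 fell at day 6, *Dclk1* (−2.24, adjusted p 0.0388 by edgeR quasi-likelihood). It did not pass without EtOH replicate 1 (0.324), EtOH replicate 2 (0.0703) or 4-OHT replicate 2 (0.0565). *Pou2f3* fell over both days (−1.49, adjusted p 0.0368), but did not pass when any library other than EtOH replicate 2 of day 6 was left out (up to 0.162). Paneth cell markers summed to 1117 to 1589 CPM with EtOH and 1301 to 3282 CPM with 4-OHT at day 6, and to 200 and 907 CPM at day 4. Of 4, 0 passed at day 6 and *Ang4* rose over both days (2.12, adjusted p 0.0181 by edgeR quasi-likelihood). It did not pass without 4-OHT replicate 1 of day 6 (0.111), the day 4 library labelled 4-OHT (0.065) or the day 4 EtOH library (0.0696). The fits without a day 4 library, for *Ang4* and *Pou2f3* alike, only restate the day 6 comparison. Enteroendocrine markers summed to 308 to 373 CPM with EtOH and 319 to 615 CPM with 4-OHT at day 6, and to 51.2 and 232 CPM at day 4, and 0 of 4 passed on either comparison. Goblet markers summed to 3015 to 3230 CPM with EtOH and 2352 to 2527 CPM with 4-OHT at day 6, and to 1939 and 2221 CPM at day 4, also with 0 of 4 called. At day 6, 3 tuft, 3 Paneth, 1 enteroendocrine and 1 goblet marker had an unadjusted p under 0.05 by edgeR quasi-likelihood. Over both days these counts were 3, 4, 4 and 1. The part of these marker lists, enterocyte and stem cell lists included, in the changes of the 9 genes was not tested.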

How the data were processed

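Per the labels' protocols, RNA was extracted with a column kit and poly-A selected, and libraries were primed with random hexamers. The authors deposited whole-number counts per gene for each library. The submitters' processing notes name STAR and mm39, and the annotation release, the strand setting and the tool versions are not given in the sources used here. Entries that name no gene (19.3% to 26.7% of the total) entered neither library sizes nor tests. Symbols and coordinates come from GENCODE M39 (GRCm39), which matched 56323 of 56884 identifiers. CPM here are counts scaled by TMM library size.

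Counts were tested with edgeR 4.0.16 (glmQLFit with legacy = FALSE, glmQLFTest) in R 4.3.3, with TMM scaling, filterByExpr at a minimum count of 10 and Benjamini-Hochberg adjustment over all genes tested, with a threshold of 0.05. SEs were derived from the log2 fold change and its F statistic (absolute value over root F). Day 6 used its 4 libraries, both days all 6 with day as a term, and the interaction 4 groups. Day 4 log2 fold changes used a prior count of 2. The method was tested on simulated counts. Alternatives were median-of-ratios scaling, 2 other filters, DESeq2 1.42.0, a block on replicate number, 6 libraries in 4 groups, other lengths and windows, leaving out each library and, added after the data were seen, the older edgeR method. Named genes were the 9 genes, copies of them, genes of each list that passed at day 6 (at most the 5 largest), and for each of the 9 the protein-coding gene of at least 5 mean CPM with the nearest profile, of which 1 is not reported here. Further list genes were named as examples after their values were seen. The 9 genes and the lists were chosen with earlier results of these data known.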

Additional observations from a re-analysis of the deposited data

How the results depend on the processing

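Across the alternatives, *Gda* and *Enpp3* stayed above the threshold at day 6 and over both days, and *Ada* at day 6, with *Ada* at 2.20 to 2.73, *Gda* at 2.99 to 3.5 and *Enpp3* at 3.78 to 4.54 on the log2 scale at day 6. For the 9 genes, 93 of 99 day 6 values and 102 of 108 values over both days kept their direction and their side of the threshold. A replicate block moved the count of genes called at day 6 from 353 to 839, and *Nt5e* passed with it (2.33, adjusted p 0.000614), as did *Pnp2* over both days (0.71, adjusted p 0.0498) and, at day 6, *Cda*, *Upb1*, *Adss1*, *Ang4* and *Pou2f3*. The labels do not say that the numbers pair the libraries, whose same-numbered deviations correlated at 0.266 across genes. Leaving out 1 library gave 99 (without EtOH replicate 1) to 409 genes at day 6, 361 (without either day 4 library) to 699 over both days, 384 without 4-OHT replicate 1 and 394 without 4-OHT replicate 2 of day 6, and 0 to 13 for the difference between days, where DESeq2 called 6. The direction turned, with no call on either side, when a library was left out for *Slc28a2* (−0.0296 to 1.53 at day 6, −0.0375 to 0.76 over both days), *Slc28a2b* (−0.20 to 0.41, −0.27 to 0.30), *Mrpl27* (−0.0155 to 0.40 at day 6), and in the difference between days for *Pnp* (−0.14 to 0.15) and *Entpd5* (−0.13 to 0.26). It also turned for *Slc28a2b* over both days by DESeq2 (−0.17) and the older edgeR method (−0.0445), and for the *Pnp* difference with a filter of 1 CPM in 2 libraries (−0.00322). The causes were not tested. In the 250 bases before the start alone, 1 of the 9 promoters held the HNF4 and 1 the HNF1 motif. Depth limits *Nt5e*, with 9 to 73 counts a library at day 6.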

Other observations

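Pyrimidine breakdown genes, a list the purine genes do not share, gave 0 calls among 6 tested at day 6 by edgeR, with 2 at an unadjusted p under 0.05 and a median log2 fold change of 0.40. The largest values were those of *Upb1* (0.78, adjusted p 0.186) and *Cda*, which deaminates cytidine (0.72, adjusted p 0.126), by edgeR quasi-likelihood. Over both days 2 of the 6 passed, *Cda* (0.64, adjusted p 0.04) and *Upb1* (0.72, adjusted p 0.046). *Upb1* did not pass when any 1 of the 6 libraries was left out (adjusted p up to 0.195), nor *Cda* without any library other than EtOH replicate 1 of day 6 (up to 0.169). The fits without a day 4 library only restate the day 6 comparison, in which neither gene passed.

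The gene with the nearest profile over the 6 libraries was found for each of the 9 genes among 10114 protein-coding genes, by the root mean square difference of centred log2 CPM. *St3gal4*, a sialyltransferase, was nearest to *Xdh* (distance 0.086), with 85.0 CPM with EtOH and 265 CPM with 4-OHT at day 6. *Chp2* was nearest to *Ada* (0.267), *Anxa10*, an annexin, to *Gda* (0.291) and *Ces2c*, a carboxylesterase, to *Nt5e* (0.269). *Zg16*, a goblet cell lectin, was nearest to *Enpp3*, at 0.608. The distance is not scaled by the size of a gene's change, so it does not compare between the 9 genes. *Ccdc6* was nearest to *Entpd5* (0.032), *Sdc4*, a syndecan, to *Entpd8* (0.053) and *Mrpl27* to *Pnp* (0.072). With 6 libraries these distances describe the profiles only.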
